A study of Schmidtea mediterranea with 50 samples.

Results

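The knockdowns compared here target a pair of regulators that act in the stem cell lineage of the planarian *Schmidtea mediterranea*, and the comparison sets them directly against each other, without the control. It takes the *chd4*(RNAi) and *p53*(RNAi) worms collected 12 days after the first RNAi feeding, 3 libraries each, so 6 of the 50 libraries of the series. The members were chosen by their labels alone, and every transcript measured in them was tested. All worms were of the asexual CIW4 strain. All ate food carrying bacteria with double-stranded RNA on days 0, 3 and 6, against *chd4*, against *p53* or, in the control, against *unc22*. Each library came from a pool of 10 whole worms, and poly(A) RNA was sequenced. The 3 *unc22*(RNAi) libraries of day 12 are given beside the 6 as the level in control worms. The direct comparison was also made at days 3, 6, 9 and 15, in libraries of their own.

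CHD4 is an ATP-dependent chromatin remodeller, known in other animals as a subunit of the NuRD complex, which also carries histone deacetylases. p53 is a transcription factor that restrains division and answers DNA damage in mammals. In planarians the adult stem cells, called neoblasts, divide and give rise to post-mitotic progeny, of which the *AGAT-1*+ cells are the late epidermal progeny that mature into the epidermis. The study chose both knockdowns because each depletes *AGAT-1*+ cells.

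The file gives RPKM, reads per kilobase of transcript scaled to the reads of the library, for 35057 assembled transcripts. Differences are on the log2(RPKM + 0.5) scale, as *chd4*(RNAi) minus *p53*(RNAi), with the standard error (SE) from limma. This scale understates the change of low transcripts. A transcript was called where the Benjamini-Hochberg adjusted p of limma's two-sided test was under 0.05 and the log2 difference was beyond 1, over the 25079 transcripts that reached 1 RPKM in 2 libraries or more. The low values of the file step in whole reads, which gave 14.6 to 26.3 M reads (M for mega) for the 6 libraries. For a transcript of 1000 bases, 1 RPKM was therefore 14.6 to 26.3 reads. In whole worms, fewer cells of a type and less RNA per cell cannot be told apart.

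The labels held in the targeted genes. *p53* (SMED30026364) was at 2.29, 6.63 and 3.38 RPKM in the *p53*(RNAi) libraries, 47.9, 48.2 and 49.3 in *chd4*(RNAi) and 34.0 to 36.4 in control. *chd4* (SMED30024368) was at 11.1, 9.96 and 10.97 RPKM in *chd4*(RNAi), 36.6 to 40.05 in *p53*(RNAi), with 36.2 to 39.0 in control. Each target was low in its own knockdown, with no overlap. The *p53* transcript was log2 0.45 above control in *chd4*(RNAi) (adjusted p = 0.0324), and *chd4* differed from control by 0.04 in *p53*(RNAi) (adjusted p = 0.727). Correlations between libraries of the same knockdown, over all tested transcripts, were 0.988 to 0.990, against 0.968 to 0.975 between the knockdowns.

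At day 12, 384 transcripts (1.53% of those tested) were called higher in *chd4*(RNAi) and 449 (1.79%) lower. By adjusted p alone the counts were 3219 (12.8%) and 3710 (14.8%), and the median difference of all transcripts was -0.02. The values of the 3 and 3 libraries did not overlap for 383 of the 384 and 443 of the 449, where 39.0% of all tested transcripts did not overlap. The higher set reached further: 92 of its transcripts were beyond a log2 difference of 2, against 38 of the lower set. With a pseudocount of 2 in place of 0.5 the counts were 203 and 248. The gene lists below were drawn from descriptions, patterns or names that the study gave to transcripts it listed as changed. Of the 1595 tested transcripts with a description, 109 (6.83%) were called higher and 201 (12.6%) lower, 519 (32.5%) and 742 (46.5%) by adjusted p alone. These shares, and not those of all transcripts, are the level for the counts of lists drawn by description. Lists drawn by in situ pattern or gene name also hold transcripts without a description. For those lists no matching share is given, and these shares are only a rough level.

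**Figure D1:**
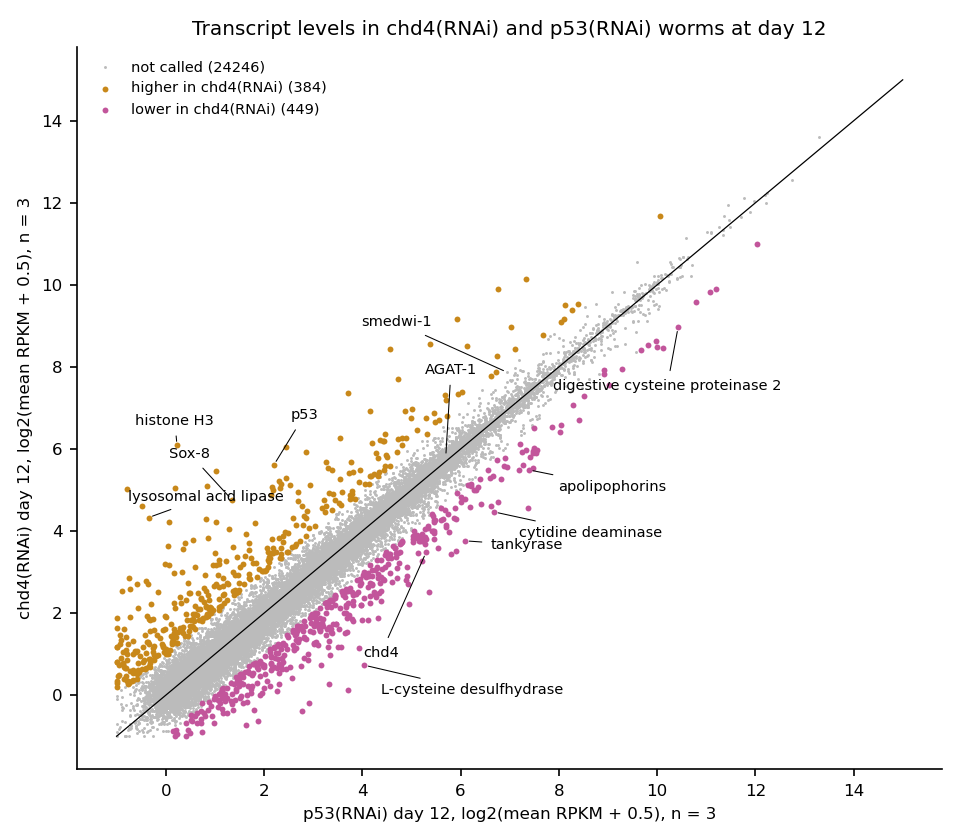
Mean level of each tested transcript in p53(RNAi) (horizontal axis) and chd4(RNAi) (vertical axis) worms at day 12, both as log2(mean RPKM + 0.5) of 3 libraries. Orange points are the 384 transcripts called higher in chd4(RNAi), magenta points the 449 called lower, grey points the rest, and the line marks equal levels. Histone H3 and lysosomal acid lipase stand far above the line and L-cysteine desulfhydrase far below it, while AGAT-1 lies on it.

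The 2 sets lay differently against the control worms. Among the 384 higher transcripts the control mean was below both knockdowns in 143, between them in 184 and above both in 57. The median RPKM of this set was 6.69 in *chd4*(RNAi), 1.52 in *p53*(RNAi), with 2.18 in control. Among the 449 lower transcripts the control mean was above both knockdowns in 251, between them in 189 and below both in 9, with medians of 3.15, 9.75 and 12.6 RPKM. These counts describe the order of means and were not tested. Against control itself, *chd4*(RNAi) had 420 transcripts called higher (1.67%) and 819 lower (3.27%), and *p53*(RNAi) 107 higher (0.427%) and 384 lower (1.53%). These 2 comparisons share their control libraries.

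Several transcripts with the largest excess in *chd4*(RNAi), among them histones, a lipase and a ferritin, had little poly(A) RNA in control and *p53*(RNAi). Sox-8 and *p53* itself were near their control level in *chd4*(RNAi) or above it. Histone RNA without a poly(A) tail was not sequenced, so the histone values below are of poly(A) RNA only. Whether the tails differed between the knockdowns was not tested. Histones, the proteins that package DNA, gave 4 of the 10 largest differences among described transcripts. Histone H3 (SMED30021776) was at 66.8, 65.2 and 70.6 RPKM in *chd4*(RNAi), 0.761, 0.787 and 0.470 in *p53*(RNAi), with 0.443 to 1.22 in control. All 3 *chd4*(RNAi) libraries stood more than 50 RPKM above every other library of the day, and the log2 difference was 5.87 ± 0.17 (SE, adjusted p = 1.69e-26). Histone H2A type 2-C (SMED30011413) was at 35.2, 32.5 and 33.9 RPKM against 1.49, 1.44 and 0.957, a log2 difference of 4.27 ± 0.18. The H4 transcripts SMED30025482 and SMED30033466 differed by 3.47 and 3.23. Their values were close in every group, so they may be copies that share reads and are uncertain as separate genes. Of the 12 listed histones 6 were called higher, all 12 passed adjusted p on the higher side, and the median was 1.57. The remaining 6 were at log2 differences of 0.24 to 0.92. Summed over the 12, RPKM was 822 to 827 in *chd4*(RNAi), 452 to 607 in *p53*(RNAi), with 548 to 615 in control.

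Lysosomal acid lipase (SMED30002911), which in mammals splits cholesteryl esters and triglycerides inside lysosomes, was at 22.9, 19.2 and 16.7 RPKM in *chd4*(RNAi) and 0.259, 0.305 and 0.291 in *p53*(RNAi). In control, 2 libraries listed it at 0 and the other at 0.219. The log2 difference was 4.67 ± 0.20 (adjusted p = 5.18e-21). Ferritins, which store iron, followed. The middle subunit (SMED30022321) was at 9.73, 9.17 and 7.24 RPKM against 0.279, 0.845 and 0.359, a difference of 3.24 ± 0.23. The spleen middle subunit (SMED30013255) was at 6.80, 8.78 and 7.11 against 0.549, 0.923 and 0.794. Soma ferritin (SMED30030028) was at 1.504, 1.99 and 1.78 RPKM in *chd4*(RNAi), was listed at 0 in all 3 *p53*(RNAi) libraries and was under 0.1 in control, so no fold is given. None of these transcripts overlapped between the knockdowns.

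The homeobox gene PKNOX2 (SMED30025969) had the same low background, at 5.83, 4.87 and 5.27 RPKM against 0.0416, 0 and 0.0669. So did an innexin, a subunit of invertebrate gap junctions. This innexin unc-9 (SMED30035331) was at 14.7, 11.1 and 12.2 RPKM against 1.02, 0.666 and 0.727 (3.33 ± 0.17). Of 12 innexins it was the 1 called higher, and 3 were called lower. Among the lower 3, innexin unc-9 (SMED30028401) was at 25.3, 40.02 and 29.9 RPKM against 73.1, 82.8 and 76.1. The other two were unc-9 (SMED30024236) and unc-7 (SMED30010011), at -1.14 and -1.05, and SMED30028401 and SMED30024236 had nearly the same values and are uncertain as separate genes. Without a description, SMED30026542 stood at 33.3, 26.8 and 35.8 RPKM against 0, 0.126 and 0.121, and SMED30011448 at 25.1, 23.6 and 23.2 against 0.304, 0.170 and 0.163.

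Proteins of the lysosome and of phagocytes were split. Of 48 listed, 7 were called higher and 3 lower, 13 and 23 passed adjusted p alone, and the median was -0.13. The lower ones, chosen after their values were seen, were the lysosomal proteins saposin-C (SMED30022652, -1.32), alpha-N-acetylgalactosaminidase (SMED30033856, -1.08) and lysosomal alpha-mannosidase (SMED30006606, -1.03). Macrophage mannose receptor 1 (SMED30007501), a lectin that binds sugars on microbes in mammals, was at 31.6, 22.8 and 31.8 RPKM against 3.31, 3.88 and 4.62, with 2.72 to 5.40 in control. The proteases cathepsin L (SMED30017650 and SMED30001027) were higher by 2.06 ± 0.12 and 1.46 ± 0.09. The second of these was at 84.7, 71.7 and 73.3 RPKM against 28.0, 28.5 and 25.7. Protease inhibitors of the Kunitz and related families gave 3 of 12 called higher and 1 lower. Tissue factor pathway inhibitor 2 (SMED30024859) was at 17.1, 16.0 and 15.3 RPKM against 1.96, 1.75 and 2.16, and InhVJ (SMED30021397) at 8.83, 11.1 and 12.1 against 1.11, 1.24 and 2.17. Inhibitor 5 II (SMED30020397) was at 2.97, 2.19 and 2.73 RPKM and listed at 0 in all 3 *p53*(RNAi) libraries. Kalicludine-2 (SMED30016139) went the other way, at 17.9, 17.4 and 16.4 RPKM against 53.3, 53.2 and 47.8, and its control libraries, at 8.44 to 17.2, were near the *chd4*(RNAi) level.

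Other high transcripts of this kind were myosin light chain kinase (SMED30011307), which drives contraction of smooth muscle in vertebrates, cytochrome P450 2J6 (SMED30010476), transmembrane protease serine 3 (SMED30035418) and bestrophin-1 (SMED30011914). The kinase was at 75.9, 85.1 and 68.0 RPKM against 10.5, 10.9 and 11.9, with 23.7 to 31.2 in control, so control lay between the knockdowns. The protease was at 19.4, 15.9 and 18.5 RPKM against 3.24, 2.94 and 2.90. The P450 was at 6.30, 4.16 and 5.20 against 0.287, 0.334 and 0.567, and bestrophin-1 at 2.42, 2.10 and 2.34 against 0.306, 0.566 and 0.295. In each of these the *chd4*(RNAi) libraries stood apart from all 6 others.

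A smaller group was near its control level in *chd4*(RNAi) and low in *p53*(RNAi). The transcription factor Sox-8 (SMED30008505) was at 27.8, 27.4 and 25.1 RPKM in *chd4*(RNAi), 0.905, 3.29 and 1.92 in *p53*(RNAi), with 21.9, 27.2 and 26.4 in control. The *p53*(RNAi) libraries were the low ones, and the direct difference was 3.54 ± 0.19 (adjusted p = 2.85e-18). Against control, Sox-8 differed by 0.09 in *chd4*(RNAi) (adjusted p = 0.757) and by -3.45 in *p53*(RNAi) (adjusted p = 7.66e-18). Synaptotagmin-1 (SMED30028321), a calcium sensor of vesicle release, was at 1.42, 1.79 and 1.28 RPKM against 0.0585, 0.197 and 0.141, with 1.605 to 2.29 in control. Fibroblast growth factor receptor 1 (SMED30034490) was at 13.4, 14.9 and 12.9 RPKM against 3.67, 5.01 and 4.60, with 15.2 to 17.6 in control.

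**Figure D2:**
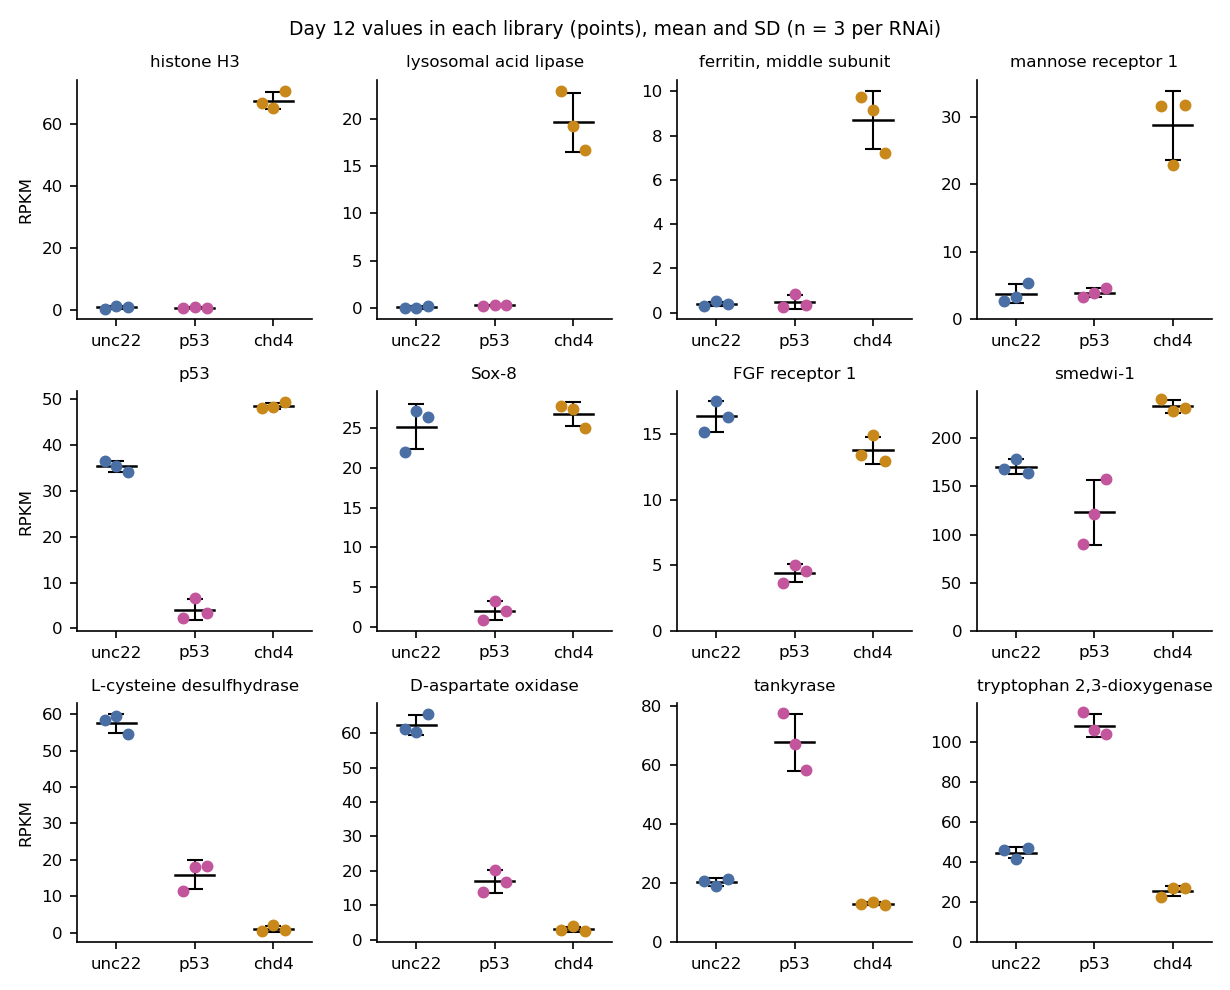
RPKM of 12 transcripts in each library of day 12 (points), with the mean and SD of 3 libraries (black lines), for unc22(RNAi) control, p53(RNAi) and chd4(RNAi) worms, each panel on its own linear axis. In the top row only chd4(RNAi) is high, in the middle row p53(RNAi) is the low group, and in the bottom row chd4(RNAi) is the low group. For tankyrase and tryptophan 2,3-dioxygenase p53(RNAi) also stands above control.

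Polyamines, small cations needed for growth, gave differences on both sides of their metabolism. *odc-1* (SMED30027207), ornithine decarboxylase, which makes putrescine, was at 45.7, 44.9 and 43.5 RPKM in *chd4*(RNAi), 19.7, 22.3 and 21.7 in *p53*(RNAi), with 43.1 to 50.3 in control (1.06 ± 0.08, adjusted p = 6.55e-14). Antizyme inhibitor 2 (SMED30034746), which protects ornithine decarboxylase from degradation in mammals, was at 10.1, 11.9 and 10.4 RPKM against 3.40, 4.73 and 4.56, with 12.9 to 14.6 in control. Polyamine oxidase (SMED30005229) was higher by 1.16 ± 0.16. Diamine acetyltransferase 1 (SMED30019281), which marks polyamines for export or breakdown, was the only called member that was lower, at 2.40, 3.503 and 3.27 RPKM against 15.0, 16.5 and 14.7, with 16.6 to 23.3 in control. Of the 12 listed polyamine and purine genes, these 3 were called higher and this 1 lower, and the median was 0.37.

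Many stem cell and division genes were higher in *chd4*(RNAi) by small amounts. *smedwi-1* (SMED30007406), the Piwi gene used to mark neoblasts, was at 241, 228 and 232 RPKM in *chd4*(RNAi) and 90.7, 121 and 158 in *p53*(RNAi), with 164 to 179 in control. All 3 *chd4*(RNAi) libraries were above control and all 3 *p53*(RNAi) libraries below it, and the difference of 0.95 ± 0.11 (adjusted p = 5.72e-09) was under the limit for a call. *p53*(RNAi) library 1, the lowest, was also the deepest at 26.3 M reads, and the part of depth in this spread was not tested. Of 69 listed genes of DNA replication and the cell cycle, 57 passed adjusted p on the higher side and 2 on the lower, with a median of 0.42. In this list 1 was called on each side. The M-phase inducer phosphatase (SMED30035864), the CDC25 family that releases mitosis, was at 13.8, 12.7 and 11.6 RPKM against 1.90, 3.15 and 3.16, with 4.78 to 5.96 in control. The lower one, dedicator of cytokinesis 1 (SMED30011727), acts on Rac in cell migration and not in division, and differed by -1.04 ± 0.09. DNA repair genes passed adjusted p on the higher side in 16 of 18 (1 called), Piwi, Tudor and germ-granule helicase genes in 10 of 10 (0 called) and genes with a neoblast-like pattern, among them the receptor above, in 17 of 21 (3 called), with medians of 0.49, 0.31 and 0.43. Summed over the 21 of the neoblast-like pattern, RPKM was 684 to 704 in *chd4*(RNAi), 437, 508 and 586 in *p53*(RNAi), with 656 to 666 in control. Ribosomal protein genes differed little, with 3 of 37 past adjusted p and a median of 0.05.

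Of 57 transcripts with a mesenchymal pattern like that of *AGAT-1*, 47 were called lower than control in *chd4*(RNAi) and 51 in *p53*(RNAi), and most of those that differed between the knockdowns were lower in *p53*(RNAi). *AGAT-1* itself (SMED30018353), a glycine amidinotransferase, was at 52.0, 60.2 and 53.6 RPKM in *chd4*(RNAi) and 39.9, 55.9 and 58.5 in *p53*(RNAi), against 202 to 226 in control. The 2 knockdowns overlapped. Their difference was 0.12 ± 0.10 (adjusted p = 0.405), and its sign turned to -0.05 without *p53*(RNAi) library 1. In the direct comparison, 15 of the 57 were called higher in *chd4*(RNAi) and 2 lower, 40 and 7 passed adjusted p alone, and the median was 0.55. All lists were drawn from transcripts the study listed as changed in a knockdown of these libraries, so their direction against control is no independent evidence. The median against control was -1.49 in *chd4*(RNAi) and -2.13 in *p53*(RNAi).

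Within this list, SMED30024165, which has no description, was at 5.13, 8.96 and 7.90 RPKM in *chd4*(RNAi), 0.245, 1.51 and 0.131 in *p53*(RNAi), with 17.4 to 19.4 in control (2.96 ± 0.26). SMED30022130, also without one, was at 35.1, 42.8 and 36.8 RPKM against 7.11, 16.4 and 10.1, with 82.0 to 102 in control. Nucleobindin-1 (SMED30002242), a calcium-binding protein, was at 3.86, 5.47 and 4.31 against 0.368, 2.11 and 0.986. In all of these *p53*(RNAi) library 2 was the highest of its group. *pla2* (SMED30011291), a phospholipase A2 homolog, went the opposite way at 3.89, 4.36 and 4.08 RPKM against 14.4, 17.03 and 14.3, with 47.6 to 57.3 in control (-1.77 ± 0.11, adjusted p = 3.59e-16).

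The 29 candidate genes that the study followed by in situ hybridization, in progeny cells, epidermis or gut, gave 3 called higher and 1 lower (*pla2*), with a median of 0.31. The 3 were *zpuf-3* (SMED30028142), *ttpal* (SMED30034257), an alpha-tocopherol transfer protein homolog, and *odc-1*. *zpuf-3* was at 93.2, 116 and 94.6 RPKM against 24.6, 63.4 and 44.2, with 383 to 444 in control, and *ttpal* at 24.5, 27.9 and 22.8 against 9.31, 12.9 and 10.8. Past adjusted p but under the limit for a call were *gatm* (0.91), *zpuf-7* (0.90), *zpuf-2* (0.87), *mpv17* (0.75), *zpuf-4* (0.67), *cyp3140A1* (0.59), *egr-5* (0.55), *zpuf-6* (0.41), *vim-3* (0.40), *cyp3142A1* (0.38), *litaf* (0.33), *adss* (0.31) and *acsl-2* (0.27) on the higher side, and *nkx-2.2* (-0.82), *cyp3143A1* (-0.79), *cyp3G1* (-0.48), *zfp-3* (-0.35), *traf-4* (-0.33) and *cyp3141A1* (-0.30) on the lower. Of these, *nkx-2.2*, *cyp3143A1*, *cyp3G1*, *zfp-3* and *traf-4* on the lower side have a gut pattern. On the higher side, *zpuf-7*, *adss* and *acsl-2* have a pattern that includes the gut along with other tissues. *zpuf-1* (-0.26, adjusted p = 0.210), *acsl-1* (-0.23, adjusted p = 0.101), *zfp-2* (-0.06, adjusted p = 0.565), *slc25a-19* (-0.06, adjusted p = 0.799) and *zpuf-5* (0.16, adjusted p = 0.200) did not pass, nor did *AGAT-1*.

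*zpuf-6* (SMED30030681), present in progeny and epidermal cells, was at 365, 369 and 351 RPKM in *chd4*(RNAi), 283, 264 and 270 in *p53*(RNAi), with 385 to 420 in control. *vim-3* (SMED30024865), an epidermal gene, was at 182, 193 and 185 RPKM against 154, 134 and 138, with 166 to 179 in control. Neither overlapped between the knockdowns. *egr-5* (SMED30029873), a transcription factor of post-mitotic epidermal progeny, was at 22.1, 23.8 and 23.3 against 14.7, 16.6 and 15.6, with 33.9 to 36.5 in control. Of 9 transcripts with an epidermal pattern, calumenin-A (SMED30003044) was called higher, cytochrome P450 2B4 (SMED30028574) lower, and the median was 0.16. The immediate early genes *fos-1* (SMED30013808) and *jun-1* (SMED30001802), whose products form a transcription factor induced by stress and wounding in many animals, were higher by 0.57 ± 0.05 and 0.79 ± 0.06, and *egr-3* (SMED30009224) by 0.27 ± 0.20 (adjusted p = 0.342). *jun-1* was at 42.6, 43.0 and 41.3 RPKM against 23.7, 23.9 and 25.3, with 22.6 to 23.5 in control. Its *p53*(RNAi) level did not pass against control (log2 difference 0.08, limma adjusted p = 0.342).

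**Figure D3:**
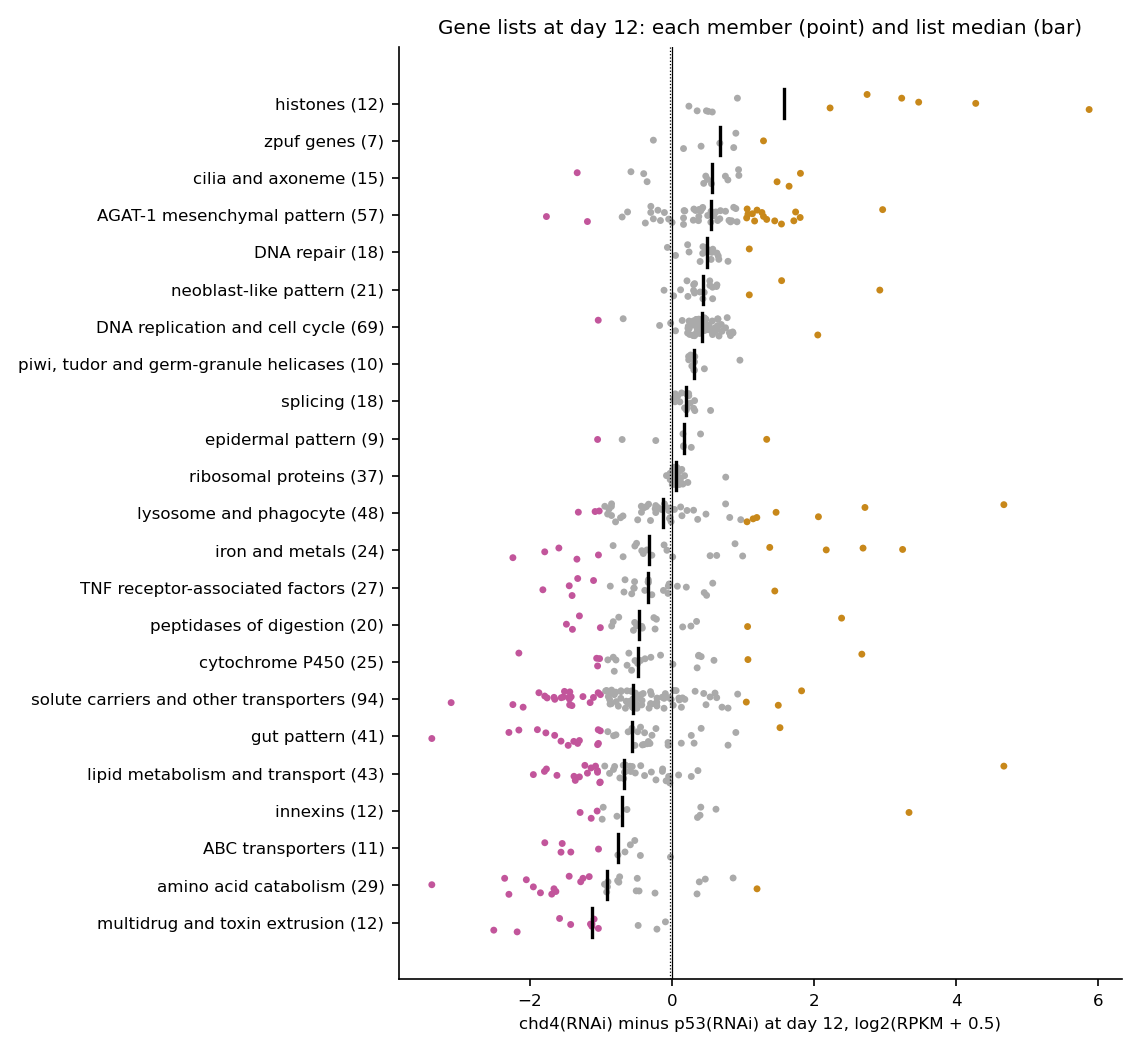
Log2 difference of chd4(RNAi) minus p53(RNAi) at day 12 for each member of 23 gene lists (points, jittered, number of members in brackets), with called members in orange (higher) and magenta (lower) and the list median as a black bar. The dotted line at -0.02 is the median of all 25079 transcripts. Histones reach 5.87 with a median of 1.57, and multidrug and toxin extrusion transporters lie at a median of -1.13.

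Described transcripts lower in *chd4*(RNAi) included enzymes and transporters of gut and metabolism. Of 29 listed enzymes of amino acid breakdown, 13 were called lower and 1 higher, 24 and 5 passed adjusted p alone, and the median was -0.92. The higher one, chosen after its value was seen, was argininosuccinate synthase (SMED30011140, 1.195), which builds arginine and belongs to the urea cycle. L-cysteine desulfhydrase (SMED30027034), which releases hydrogen sulfide from cysteine, was at 0.575, 2.08 and 0.833 RPKM in *chd4*(RNAi), 11.4, 18.1 and 18.4 in *p53*(RNAi), with 54.5 to 59.4 in control. The 3 groups were fully apart, and the difference of -3.38 ± 0.21 (adjusted p = 3.30e-16) was the largest on the lower side among described transcripts. D-aspartate oxidase (SMED30033916) was at 2.68, 3.87 and 2.59 RPKM against 13.8, 20.3 and 16.7, with 60.5 to 65.7 in control. Urocanate hydratase (SMED30002510), a step of histidine breakdown, was at 9.28, 11.9 and 10.1 against 56.2, 57.4 and 52.3, with 65.0 to 66.1 in control.

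For some of these genes *p53*(RNAi) was above control. Tryptophan 2,3-dioxygenase (SMED30007277), the entry to the kynurenine pathway, was at 22.8, 27.3 and 27.1 RPKM in *chd4*(RNAi), 115, 106 and 104 in *p53*(RNAi), with 41.5 to 46.9 in control. Against control it differed by -0.79 in *chd4*(RNAi) (adjusted p = 3.04e-10) and by 1.26 in *p53*(RNAi) (adjusted p = 2.17e-15). Tankyrase (SMED30035782), an ADP-ribosyl transferase in mammals, was at 13.1, 13.7 and 12.5 RPKM against 77.9, 67.2 and 58.3, with 19.0 to 21.4 in control. Cytidine deaminase (SMED30034331), of pyrimidine salvage, was at 19.1, 24.7 and 21.1 against 108, 100 and 98.5, with 40.6 to 54.7 in control. Sulfotransferase 1C4 (SMED30012012) was at 1.58, 1.83 and 1.70 against 18.4, 13.2 and 12.9, with 6.67 to 8.07 in control. In all of these, control lay between the knockdowns with no overlap. The kainate-type glutamate receptor (SMED30023223), at 11.2, 11.9 and 11.7 RPKM against 49.2, 44.9 and 44.5, and excitatory amino acid transporter 2 (SMED30008388), which takes up glutamate, at 3.83, 5.20 and 4.16 against 21.7, 21.2 and 18.2, had the same order. So did the sodium-coupled monocarboxylate transporter 1 (SMED30007294) and the undescribed SMED30002575, at 0.465, 0.840 and 0.449 RPKM against 13.2, 12.6 and 11.8, with 2.68 to 3.35 in control (-3.60 ± 0.17). The other large undescribed transcript, SMED30008050, was at 0.232, 0.246 and 0.323 against 5.62, 5.36 and 7.99, with 9.18 to 9.57 in control.

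All 9 called among 12 multidrug and toxin extrusion (MATE) transcripts, which export organic cations in mammals, were lower, 11 passed adjusted p, and the median was -1.13. Among them SMED30019939 was at 0.0703, 0.251 and 0.107 RPKM against 2.27, 3.62 and 3.71, with 11.2 to 12.5 in control, and SMED30006516 at 1.52, 3.32 and 2.19 against 10.7, 11.8 and 13.5, with 22.3 to 23.2 in control. The list summed to 26.8, 51.8 and 34.3 RPKM in *chd4*(RNAi), 73.2 to 88.4 in *p53*(RNAi), with 154 to 165 in control, so *chd4*(RNAi) library 2 was the highest of its group. Of 11 tested ABC transporters 5 were called lower and 0 higher (10 and 0 by adjusted p alone, limma), with a median of -0.76. The eye-pigment transporter homolog white (SMED30017487) was at 0.701, 1.62 and 0.846 RPKM against 2.91, 5.99 and 5.93, with 22.2 to 23.4 in control. Of 94 solute carriers and other transporters 22 were called lower and 3 higher, with a median of -0.55. The higher ones, chosen after their values were seen, were 2 putative SVOPL transporters (SMED30021257 and SMED30029823, 1.82 and 1.04) and glycine transporter 1 (SMED30026809, 1.49). The riboflavin transporter of family 52 (SMED30034985) was at 0.188, 0.633 and 0.320 RPKM against 5.43, 8.25 and 7.43, with 15.1 to 16.5 in control (-3.11 ± 0.17). The zinc importer ZIP1 (SMED30013960) was at 4.75, 8.45 and 5.05 against 24.3, 32.0 and 33.6, with 69.9 to 72.5 in control.

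Of 41 transcripts with a gut pattern, 15 were called lower and 1 higher, and the median was -0.57, against -1.95 for *chd4*(RNAi) and -0.88 for *p53*(RNAi) relative to control. The list summed to 1423, 1944 and 1521 RPKM in *chd4*(RNAi), 2985, 3387 and 3556 in *p53*(RNAi), with 6195 to 6626 in control, and the 3 groups did not overlap. Most of each sum came from 1 member, SMED30018252 below, so the sums largely follow that transcript. Digestive cysteine proteinase 2 (SMED30035609), which breaks down protein in the gut of other invertebrates, was at 388, 644 and 468 RPKM against 1247, 1341 and 1543, with 2354 to 2476 in control. Another transcript of this name (SMED30018252) was at 809, 1188 and 883 against 2078, 2356 and 2614, with 4166 to 4551 in control. Both may share reads, so they are uncertain as separate genes. The gut homeobox gene *nkx-2.2* (SMED30011793) was at 10.7, 20.7 and 14.7 RPKM against 22.5, 27.7 and 30.5, with 66.8 to 71.3 in control. In both, *chd4*(RNAi) library 2 was again the highest of its group. Cytochrome P450 3A24 (SMED30016464) was at 2.48, 2.48 and 2.198 against 11.5, 12.3 and 13.3, and of 25 P450 transcripts 4 were called lower and 2 higher, shares near those of all described transcripts, with a median of -0.48.

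Of 43 genes of lipid metabolism 15 were called lower and 1 higher, lysosomal acid lipase, with 32 and 3 by adjusted p alone and a median of -0.68. Apolipophorins (SMED30020296), the lipid carrier of insect blood, was at 31.7, 62.0 and 39.9 RPKM against 172, 154 and 176, with 252 to 255 in control (-1.95 ± 0.16). Phospholipase B1 (SMED30015566) was at 19.5, 34.4 and 20.4 against 85.8, 78.0 and 89.4, with 80.8 to 88.2 in control, so *p53*(RNAi) stayed at the control level here (log2 difference -0.01, adjusted p = 0.960). TNF receptor-associated factors, signalling adaptors that are numerous in planarians, were called lower in 5 of 27 and higher in 1, TNF receptor-associated factor 6-B (SMED30027690), with a median of -0.34. SMED30025971 of this family was at 11.9, 16.2 and 13.6 RPKM against 40.3, 40.3 and 35.0, with 41.4 to 44.0 in control. Among other lower transcripts, Rac1 (SMED30000430), a small GTPase of the actin cytoskeleton, was at 2.76, 5.78 and 3.92 RPKM against 27.1, 28.8 and 35.0, with 42.2 to 50.6 in control. The matrix protein hemicentin-1 (SMED30024938) was at 3.80, 4.71 and 4.15 against 17.1, 20.3 and 15.0, with 51.8 to 56.5 in control.

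Cilia and axoneme genes passed adjusted p on the higher side in 11 of 15 and on the lower in 4, with 3 and 1 called and a median of 0.55. The list was drawn by words in the descriptions, and none of the called members has a name specific to cilia. A beta tubulin (SMED30008130) was at 1.32, 1.31 and 1.13 RPKM in *chd4*(RNAi) and listed at 0 in all 3 *p53*(RNAi) libraries. Dynein light chain 2, described as cytoplasmic (SMED30011345), was at 4.66, 4.32 and 4.57 against 1.73, 1.54 and 0.782. The other dynein light chain called (SMED30024925) had a like range and may share reads with it. The lower member, tubulin alpha-1 (SMED30021235), was at 79.6, 112 and 87.2 RPKM against 219, 256 and 226, with 577 to 598 in control. Of 11 heat shock genes, the chaperone Hsp70 (SMED30017448) was called higher, at 23.3, 23.1 and 24.97 RPKM against 7.23, 9.25 and 10.9, with 12.0 to 14.1 in control, and the list median was 0.13. Muscle and matrix genes were split, with 2 of 19 called higher and 6 lower. Versican core protein (SMED30020539), a matrix proteoglycan in vertebrates, was at 16.2, 11.3 and 12.7 RPKM against 3.95, 4.20 and 3.70, while lysyl oxidase homolog 2A (SMED30027243), of a family that cross-links collagen, was at 1.2, 2.08 and 1.25 against 5.69, 8.03 and 6.999. Neural receptor and synapse genes gave 2 of 22 higher and 3 lower, with a median of 0.00. Metabotropic glutamate receptor 3 (SMED30001121) was among the lower ones at 1.46, 2.60 and 1.68 RPKM against 6.35, 8.12 and 8.50. Iron and metal genes gave 4 of 24 higher, the ferritins above among them, and 5 lower. Digestive peptidases gave 2 of 20 higher and 4 lower, among them chymase (SMED30035366), at 1.05, 1.67 and 0.839 RPKM against 3.95, 4.38 and 3.34. Splicing genes passed adjusted p on the higher side in 10 of 18 and chromatin factors in 12 of 18, with medians of 0.20 and 0.25. The 1 chromatin factor called, on the lower side, was *chd4* itself. Of 7 *zpuf* genes, 5 passed on the higher side, with a median of 0.67.

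The same direct comparison on other days used other libraries. At day 9, 310 transcripts (1.24%) were called higher in *chd4*(RNAi) and 245 (0.977%) lower, and at day 15, 489 (1.95%) and 613 (2.44%). Of the 384 higher at day 12, 229 were also called higher at day 9, which is 59.6% of the day 12 set and 73.9% of the day 9 set. At day 15, 306 were called higher, 79.7% of the day 12 set and 62.6% of the day 15 set. Of the 449 lower, 168 were called lower at day 9 (37.4% of the day 12 set, 68.6% of the day 9 set) and 373 at day 15 (83.1% and 60.8%). No transcript of either set was called in the opposite direction at day 9 or day 15. The sign was the same as at day 12 for 372 of 384 and 434 of 449 at day 9, where 62.0% of all tested transcripts had the same sign, and for 382 and 443 at day 15, where 73.8% had.

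On the early days more transcripts were called higher in *chd4*(RNAi) than lower. At day 3, 52 transcripts (0.207%) were called higher and 5 (0.0199%) lower, and at day 6, 122 (0.486%) and 34 (0.136%). Of the day 12 sets, 39 of the 384 were already called higher at day 3 and 92 at day 6, against 1 and 14 of the 449. In the opposite direction, 1 of the 384 and 0 of the 449 were called at day 6. The median difference of the 384 was 0.27, 0.56, 1.15 and 1.43 at days 3, 6, 9 and 15, with 1.47 at day 12. The median of the 449 was 0.07, -0.33, -0.84 and -1.65, with -1.33 at day 12. Both day 12 values belong to the comparison that chose the sets, so they are a description only. Histone H3 differed by 2.81 at day 3, 4.81 at day 6, 5.46 at day 9 and 5.26 at day 15, and Sox-8 by 1.40, 2.25, 3.13 and 3.81. L-cysteine desulfhydrase differed by 0.24, -0.66, -2.23 and -3.99 on the same days.

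**Figure D4:**
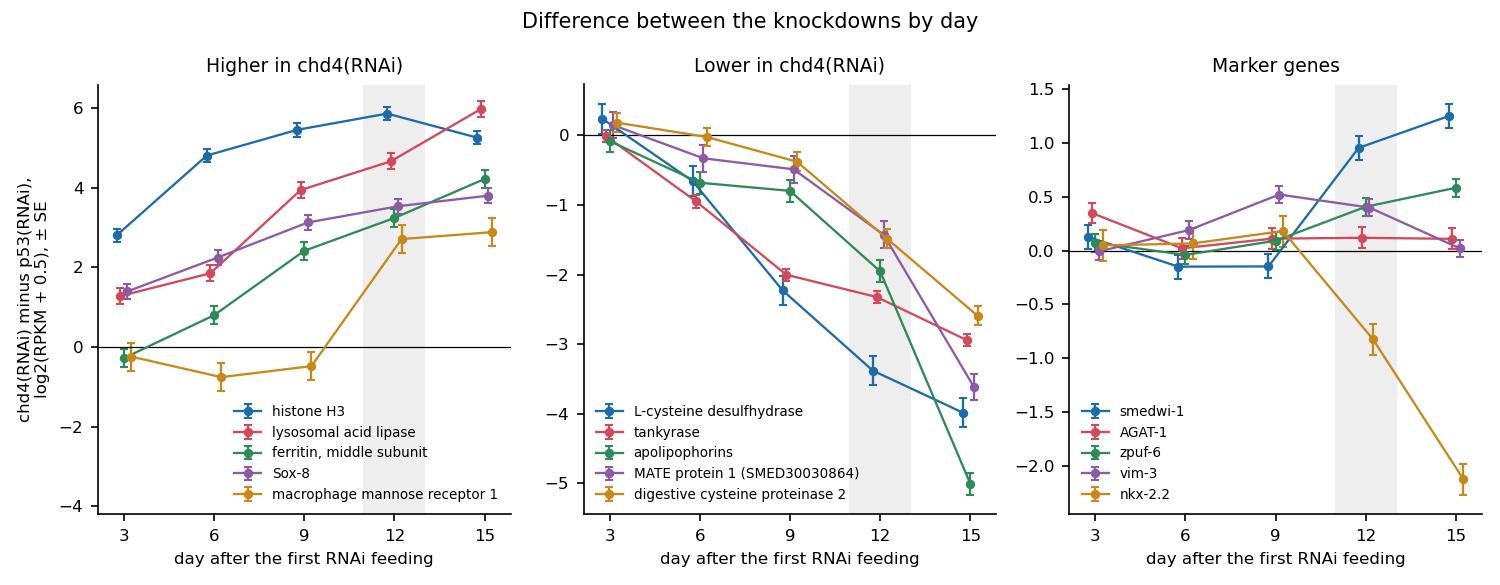
Log2 difference of chd4(RNAi) minus p53(RNAi) at days 3, 6, 9, 12 and 15 (points, with bars for the SE from limma, slightly offset so that they do not cover each other), for 5 transcripts that were higher, 5 that were lower and 5 markers, with day 12 shaded. Mannose receptor 1 goes from -0.48 at day 9 to 2.71 at day 12, apolipophorins from -1.95 at day 12 to -5.01 at day 15, and smedwi-1 from -0.15 at day 9 to 0.95 at day 12.

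Whether the difference itself changed between days was tested in the same model. Between days 9 and 12 it changed for 249 transcripts (0.993% of those tested), and in 169 of them it was larger in size at day 12. The sign differed between the days in 147. Between days 12 and 15 it changed for 131 (0.522%) and was larger at day 15 in 119. With a pseudocount of 2 the 169 became 57 and the 119 became 51. *p53*(RNAi) library 1 of day 9 correlated less with the others of its group (0.981, against 0.989 between the others), and without it the 169 became 172. The median of the 69 division genes was -0.35 at day 9, 0.42 at day 12 and 0.73 at day 15, and those of neoblast-like pattern were at -0.23, 0.43 and 0.57. Without *p53*(RNAi) library 1 the day 9 medians were -0.34 and -0.21. Other lists turned sign between days 9 and 12 too, splicing from -0.18 to 0.20, ribosomal proteins from -0.16 to 0.05 and heat shock from -0.28 to 0.13, and no change of a list was tested. *smedwi-1* changed by 1.101 ± 0.16 between days 9 and 12 (adjusted p = 8.13e-06). Its mean fell in every group, from 263.5 to 233.5 RPKM in *chd4*(RNAi), from 291.8 to 123.3 in *p53*(RNAi) and from 227.6 to 170.5 in control. Macrophage mannose receptor 1 changed by 3.20 ± 0.50 (adjusted p = 3.13e-05). Its mean rose from 16.72 to 28.75 RPKM in *chd4*(RNAi), and fell from 23.64 to 3.94 in *p53*(RNAi) and from 15.37 to 3.83 in control. In the other direction, apolipophorins changed by -3.05 ± 0.22 between days 12 and 15 (adjusted p = 4.98e-12), the MATE transporter SMED30030864 by -2.19 ± 0.27 (adjusted p = 9.76e-07) and *nkx-2.2* by -1.30 ± 0.20 (adjusted p = 6.41e-05). The histone list had medians of 1.16, 1.57 and 1.88 on days 9, 12 and 15, but at day 9 only 8 of the 12 passed adjusted p on the higher side and 4 passed on the lower, where all 12 were higher at days 12 and 15.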

How the data were processed

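Poly(A) RNA of pools of 10 whole worms was sequenced as single reads of 50 bases from stranded libraries. Per the labels and the study's methods, the authors made reads with CASAVA 1.8.2, aligned them with Bowtie (version not given in the sources used here) to assembled transcripts, counted them with custom scripts and deposited RPKM; how these were scaled is not given in the sources used here. The authors used edgeR and removed 1 outlier library, outside day 12. The labels call the 3 libraries of a group biological replicates.

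Since the deposited values are RPKM and not counts, limma 3.58.1 (R 4.3.3, intensity trend) was fitted to log2(RPKM + 0.5) of all 50 libraries in 17 groups (33 residual degrees of freedom), which share 1 spread per transcript. Of 35057 transcripts, 9978 without 1 RPKM in at least 2 libraries were left out, and p-values were adjusted by Benjamini-Hochberg over the other 25079. An exact permutation test of 3 against 3 libraries cannot go below p = 0.1 and was not used. In simulated data for the day 12 comparison (25079 transcripts, 200 shifted), 100% of shifts of 1.5 or 2 on the log2 scale were called, and 4 of 24879 unshifted transcripts. Only transcripts with a mean above 1 on that scale were shifted, and the noise was normal with the same spread in every group. The simulation therefore does not cover low transcripts or differences near the limit of 1. Depth was recovered from steps of whole reads in values up to 0.5 RPKM, within 0.02 reads.

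The study listed as changed or cloned 2338 transcripts, of which 1605 have a Swiss-Prot description. Lists came from these descriptions, from gene names and from the in situ patterns of cloned genes. Gene roles are background from other animals. Members and lists were chosen with earlier results of these data known. Genes were named where the study names them, as the 10 largest described differences in each direction, as up to 4 called members of each list, and as the 2 largest undescribed in each direction. For 2 members of the neoblast-like list that this rule would name, values are not reported here. No sequences were used. Alternatives changed the pseudocount, filter, scaling, libraries, replicate block, trend and threshold.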

Additional observations from a re-analysis of the deposited data

Results flagged for a closer look

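For the genes below the difference between *chd4*(RNAi) and *p53*(RNAi) itself differed between 2 days, by limma's test of that change (adjusted p under 0.05, log2 beyond 1). All values are changes of the log2 difference, later day minus earlier day. They do not tell which knockdown changed, and a move toward *chd4*(RNAi) can be a fall in *p53*(RNAi). Leaving out each of the 12 libraries involved in turn kept adjusted p under 0.05 except where named, and a lost call below means by adjusted p. The log2 limit of 1 was not always kept. For many of these genes the change was inside it in at least 1 such fit. Among them were *nkx-2.2* from day 9 to day 12 (to -0.78), chymase (to -0.81) and *smedwi-1* (to 0.90).

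From day 9 to day 12 the difference moved toward *chd4*(RNAi) for macrophage mannose receptor 1 (3.20), the undescribed SMED30026542 (1.40), dynein light chain 2 (SMED30024925, 1.31), versican core protein (SMED30020539, 1.22), transmembrane protease serine 3 (1.18) and *smedwi-1* (1.101). The dynein light chain, which has a near copy, lost its call without any of *chd4*(RNAi) libraries 1 and 2 of day 12, *p53*(RNAi) library 3 of day 12 and *p53*(RNAi) library 1 of day 9 (highest adjusted p = 0.0688). Versican lost it without library 1 of either knockdown of day 9 (highest adjusted p = 0.0568). It moved away from *chd4*(RNAi) for diamine acetyltransferase 1 (-1.24), apolipophorins (-1.16), L-cysteine desulfhydrase (-1.15), Rac1 (SMED30000430, -1.14), the multidrug and toxin extrusion protein SMED30002443 (-1.12), digestive cysteine proteinase 2 (-1.11), sulfotransferase 1C4 (-1.08), metabotropic glutamate receptor 3 (SMED30001121, -1.05) and *nkx-2.2* (-1.01). L-cysteine desulfhydrase was at adjusted p = 0.0551 without *chd4*(RNAi) library 1 of day 12.

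From day 12 to day 15 it moved toward *chd4*(RNAi) for versican (1.33), proteinase inhibitor 5 II (SMED30020397, 1.33), lysosomal acid lipase (1.31) and synaptotagmin-7 (SMED30000412, 1.13). Versican lost its call without *chd4*(RNAi) library 2 of day 12, *chd4*(RNAi) library 2 of day 15 or *p53*(RNAi) library 3 of day 15 (highest adjusted p = 0.129). Synaptotagmin-7 lost it without *p53*(RNAi) library 3 of day 12 or *chd4*(RNAi) library 2 of day 15 (highest adjusted p = 0.111). The inhibitor lost it in 9 of the 12 cases (highest adjusted p = 0.196). It moved away from *chd4*(RNAi) for apolipophorins (-3.05), the extrusion proteins SMED30030864 (-2.19) and SMED30006516 (-1.25), phospholipase B1 (-1.61), *nkx-2.2* (-1.30), Rac1 (-1.23), digestive cysteine proteinase 2 (-1.104) and chymase (SMED30035366, -1.01).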

How the results depend on the processing

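The counts of calls depended on how low values and small differences were treated. With a pseudocount of 2 the 384 higher, 449 lower, 169 larger at day 12 than at day 9 and 119 larger at day 15 than at day 12 became 203, 248, 57 and 51, and with one of 0.1 the lower count was 676. With no minimum difference 3219 were higher and 3710 lower. Leaving out 1 library at a time gave 372 to 398 higher, 417 to 521 lower, 113 to 250 larger at day 12 than at day 9 and 86 to 150 larger at day 15 than at day 12. The extremes of 113 and 250 came without *chd4*(RNAi) libraries 1 and 2 of day 12. Leaving out libraries of days 9 and 15, for counts and list medians, was added after seeing the data. Other scalings, filters, smaller fits and a fit without the trend kept these 4 counts within 1.5 times.

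The replicate numbers did not pair the libraries: deviations of same-numbered libraries correlated at 0.03, 0.06 and 0.01. A replicate block gave 384 higher and 449 lower in the fit of all libraries, 382 and 448 in the fit of the 6, and 170 and 119 for the changes between days.

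Of 119 named genes, 112 passed adjusted p, and 107 of these did so with the same sign under every alternative. The sign turned for *slc25a-19* (SMED30010366), from -0.056 to 0.0063 with quantile normalization, and to between -0.14 and 0.083 on leaving out 1 library (positive without *chd4*(RNAi) library 1 or *p53*(RNAi) library 2). It turned for *AGAT-1* (SMED30018353), from 0.12 to between -0.052 and 0.22, negative without *p53*(RNAi) library 1. Neither had passed the test, and the cause was not tested.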
